A study of Mus musculus with 6 samples.

Results

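The enzymes of de novo purine synthesis were compared between parental CT26.mMR1 cells and the mutant M8. The 10 genes were taken by symbol from a list of the pathway's enzymes (Prps1, Ppat, Gart, Pfas, Paics, Adsl, Atic, Impdh1, Impdh2 and Gmps), and all 10 were found among the 24346 gene symbols deposited for each sample. CT26.mMR1 is the mouse colorectal tumor line CT26 transduced with a retrovirus that carries mouse MR1, so both groups overexpressed MR1. The parental group was not mutagenized. M8 came from the same line after treatment with the mutagen ENU (N-ethyl-N-nitrosourea) and limiting dilution. It was picked because it activated a reporter line with the receptor of MAIT cells (MR1-restricted T cells) more strongly and had more MR1 on its surface. It is thus 1 clone, and a difference between the groups cannot be told apart from a difference that any clone of this line might show. RNA of 3 replicates of each group was sequenced. Expression was given as FPKM, the number of fragments scaled to transcript length and library size. The replicates are called biological, but no source used here says whether they were separate cultures, so p-values measure only the spread between these samples, which may be technical. Below, ± is the SD of 3 replicates.

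Cells build purines on a ribose ring. Phosphoribosyl pyrophosphate synthetases such as Prps1 make the activated ribose, PRPP. Ppat then commits it to the pathway, and Gart, Pfas, Paics, Adsl and Atic complete inosine monophosphate (IMP). Gart and Atic each add a carbon that they take from 10-formyl tetrahydrofolate, and they are the steps at which the pathway uses folate. From IMP, the dehydrogenases Impdh1 and Impdh2 and the synthetase Gmps lead to GMP, whereas an adenylosuccinate synthetase (Adss or Adssl1) and again Adsl lead to AMP. Proliferating cells draw on this pathway for DNA and RNA. Gart and Atic are also among the folate metabolism genes that the study picked for their higher expression in M8 in these samples, so their direction is not independent evidence here. The comparison asks whether the folate-using steps stood apart from the other steps.

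The annotated starts of Ppat and Paics face each other on chromosome 5, and the promoter windows of these neighbors are shown because they share a start region while only Ppat passed the test below. In RefSeq (GRCm38, the genome of mm10), Ppat runs on the minus strand from 76951578 down to 76913249 and Paics on the plus strand from 76951302 to 76967509. The gene spans thus overlap by 277 bases at their 5′ ends. The windows of Atic and Impdh2 are shown because, with that of Paics, they were the member windows with the E-box CACGTG, the letters that Myc with its partner Max can bind. Each window holds 250 bases before and 50 bases after the annotated start, 5′ to 3′ on the strand of the gene, and capitals mark CACGTG.
Ppat (chr5:76951529-76951828, - strand): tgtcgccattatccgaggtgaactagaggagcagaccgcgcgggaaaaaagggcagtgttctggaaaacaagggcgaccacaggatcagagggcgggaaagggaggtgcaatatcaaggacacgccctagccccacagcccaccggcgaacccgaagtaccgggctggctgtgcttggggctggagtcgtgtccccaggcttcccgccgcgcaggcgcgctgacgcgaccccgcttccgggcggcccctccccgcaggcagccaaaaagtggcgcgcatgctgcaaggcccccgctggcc
Paics (chr5:76951052-76951351, + strand): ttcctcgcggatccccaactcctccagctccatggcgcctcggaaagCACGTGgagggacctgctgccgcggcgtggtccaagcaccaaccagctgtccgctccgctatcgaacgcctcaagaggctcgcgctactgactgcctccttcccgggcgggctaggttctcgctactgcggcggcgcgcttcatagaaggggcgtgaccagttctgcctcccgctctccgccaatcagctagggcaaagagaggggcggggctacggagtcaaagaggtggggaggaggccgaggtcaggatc
Atic (chr1:71556906-71557205, + strand): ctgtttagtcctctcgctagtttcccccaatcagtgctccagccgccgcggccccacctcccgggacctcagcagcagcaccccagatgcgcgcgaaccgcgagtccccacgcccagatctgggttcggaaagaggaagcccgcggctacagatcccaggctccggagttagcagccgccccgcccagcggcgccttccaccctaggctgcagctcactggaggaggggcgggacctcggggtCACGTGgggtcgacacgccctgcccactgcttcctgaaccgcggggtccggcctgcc
Impdh2 (chr9:108560186-108560485, + strand): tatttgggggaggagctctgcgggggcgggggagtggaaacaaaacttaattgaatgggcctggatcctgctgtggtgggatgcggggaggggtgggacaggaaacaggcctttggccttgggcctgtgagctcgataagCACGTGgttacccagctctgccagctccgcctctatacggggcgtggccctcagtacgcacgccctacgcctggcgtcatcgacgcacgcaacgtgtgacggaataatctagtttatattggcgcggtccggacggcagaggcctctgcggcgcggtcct
CACGTG, which reads the same on both strands, began 7 bases before the annotated start of Atic, 110 bases before that of Impdh2 and 203 bases before that of Paics. It was found for 3 of the 9 members that had a window. Over all genes it was found in 7.15% of 32851 windows of this length, counted per window and not per gene. The letters TGATGNAA, a core of sites bound by Atf4, were searched on both strands and were found only in the window of Prps1, and in 3.97% of all windows. Pfas had no entry. These matches describe the letters in the windows only.

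In M8, 5 of the 6 enzymes that lead from PRPP to IMP were higher than in parental cells. These were Ppat, Gart, Pfas, Adsl and Atic, by 11% to 18.9% of the parental mean FPKM. Of these, Pfas was only just past the threshold given below and did not pass with any 1 replicate left out. Paics was the exception, and Prps1 and the 3 genes of the GMP branch also did not pass the test. In limma's test of log2(FPKM + 1), adjusted over 10597 genes whose FPKM averaged 1 or more and with a threshold of 0.1 for the adjusted p, 5 of 10 members were higher, against 21.2% of all genes tested. None was lower, against 16.5% of all genes, and none was lower at an unadjusted p below 0.05 either. In the same 5 genes the 3 M8 values lay all above the 3 parental values, which held for 24.8% of all genes tested, and in no member did they lie all below, which held for 20.4%. All 10 members passed the filter on low values. The median log2 fold change was 0.11 over the members and 0.0069 over all genes tested. The members were chosen with earlier results known, so these shares describe them and were not tested. In bulk RNA, a change in the share of cells that express a gene cannot be told apart from a change in RNA per cell.

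**Figure D1:**
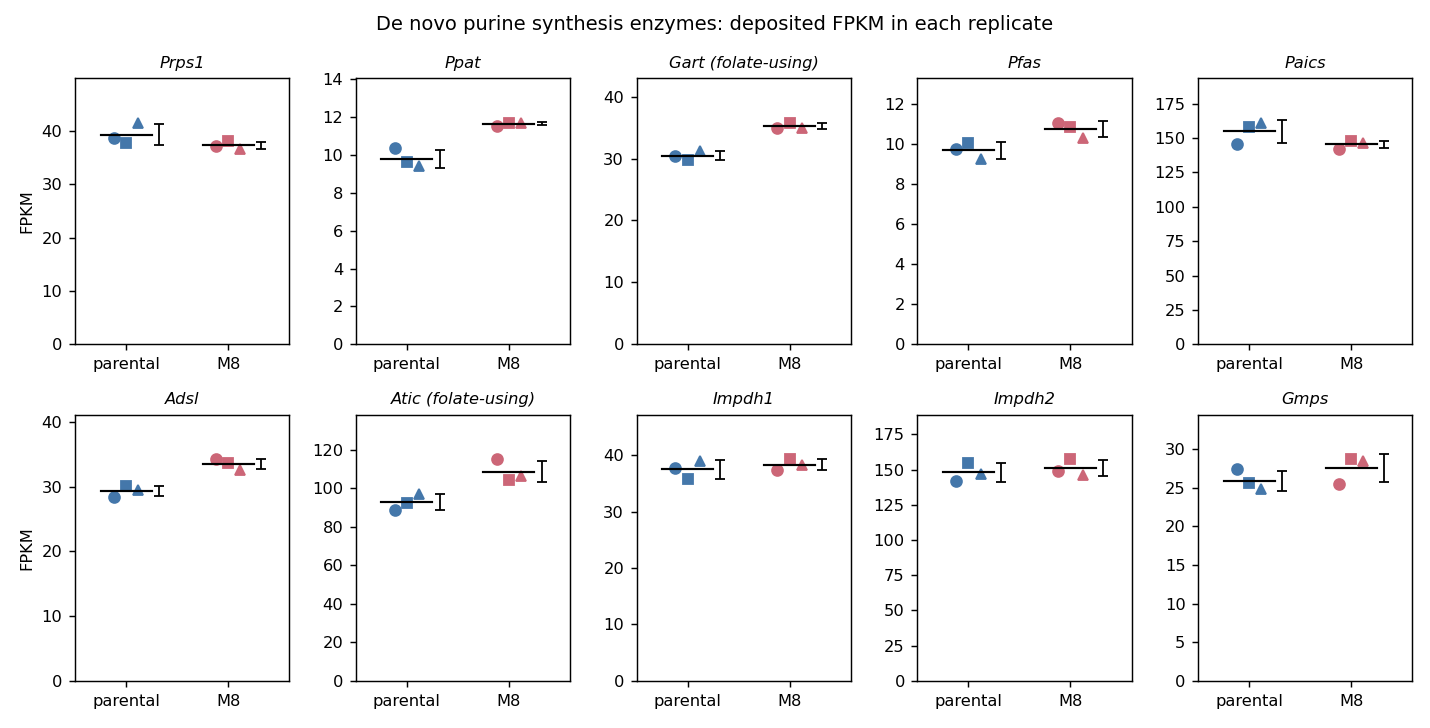
FPKM of each enzyme gene in the 3 parental (blue) and 3 M8 (red) replicates, with the y axis from 0. Circles, squares and triangles are replicates 1, 2 and 3, horizontal lines are means and bars to the right are ± SD. Ppat, Gart, Pfas, Adsl and Atic had all 3 M8 values above all 3 parental values, and the other 5 genes overlapped.

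Ppat, the amidotransferase that commits PRPP to purines, had FPKM values of 10.3, 9.61 and 9.42 in parental replicates 1 to 3 and 11.6, 11.7 and 11.7 in M8 replicates 1 to 3. The replicates of other genes are given in the same order. The M8 values were close together and all above the parental ones. The log2 fold change, 0.23 with a standard error of 0.054, passed (limma adjusted p = 0.0130), and 11% of all genes tested had a higher one. Gart, which carries 3 activities in 1 protein, one of them the first formyl transfer, had parental FPKM values of 30.3, 29.8 and 31.2 and M8 values of 34.9, 35.8 and 35. The groups were again apart. Gart rose by 0.20 on the log2 scale with a standard error of 0.041 (limma adjusted p = 0.00664). Pfas, the glutamine-using enzyme that follows, was among the lowest members, with parental FPKM values of 9.78, 10.04 and 9.24 and M8 values of 11.1, 10.9 and 10.3. Its lowest M8 value was only just above its highest parental value. Its log2 fold change, 0.14 with a standard error of 0.056, was near the threshold (limma adjusted p = 0.0966), and with any 1 of the 6 replicates left out it did not pass (limma adjusted p from 0.102 to 0.253). It also did not pass with TPM (log2 fold change 0.11, limma adjusted p = 0.251), with upper-quartile scaling (0.081, limma adjusted p = 0.308), without the filter on low values (limma adjusted p = 0.139) or with the replicate block (limma adjusted p = 0.102).

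Paics, whose product joins a carboxylase and an aspartate-using synthetase, did not follow its neighbor Ppat. Its FPKM values were 146, 158 and 161 in parental cells and 142, 148 and 146 in M8, so that parental replicate 1 lay within the M8 range. The log2 fold change was -0.09 (95% interval -0.19 to 0.013, limma adjusted p = 0.172). It was called lower when TPM, quantile normalization or upper-quartile scaling replaced the deposited scale (log2 fold changes -0.13, -0.19 and -0.15), and also without parental replicate 1 (log2 fold change -0.13, limma adjusted p = 0.0322). Adsl, the lyase that acts both on the way to IMP and in the AMP branch, had parental FPKM values of 28.5, 30.0 and 29.5 and M8 values of 34.2, 33.6 and 32.6. The groups did not overlap, and Adsl rose by 0.18 on the log2 scale with a standard error of 0.043 (limma adjusted p = 0.0130). Atic, which makes the second formyl transfer and closes the ring, had parental FPKM values of 88.6, 92.6 and 97.2 and M8 values of 115, 105 and 107. M8 replicate 1 was the highest and all 3 M8 values were above the parental ones. Atic rose by 0.23 on the log2 scale with a standard error of 0.050 (limma adjusted p = 0.0103).

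Neither the supply of PRPP nor the GMP branch held a gene past the threshold. Prps1 had parental FPKM values of 38.7, 37.8 and 41.6 and M8 values of 37.3, 38.1 and 36.7. The ranges overlapped (log2 fold change -0.072, 95% interval -0.18 to 0.034, limma adjusted p = 0.282), although quantile normalization and upper-quartile scaling called it lower (-0.14 and -0.13). In the GMP branch, Impdh1 had parental FPKM values of 37.8, 35.7 and 39.0 and M8 values of 37.3, 39.2 and 38.3. Impdh2, the isoenzyme known to predominate in proliferating cells, had parental FPKM values of 142, 155 and 147 and M8 values of 149, 157 and 146. Neither isoenzyme separated the groups, and the 95% intervals of the ratio M8 to parental were 0.949 to 1.10 for both. Their log2 fold changes of 0.029 and 0.028 fell below 0 with TPM, quantile normalization and upper-quartile scaling. Gmps, the last enzyme of the branch, had parental FPKM values of 27.4, 25.6 and 24.8 and M8 values of 25.4, 28.7 and 28.5. M8 replicate 1 lay among the parental values, and the log2 fold change of 0.083 (95% interval -0.05 to 0.22) did not pass (limma adjusted p = 0.322). It was 0.17 and passed after a correction for GC content and transcript length (limma adjusted p = 0.0505).

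**Figure D2:**
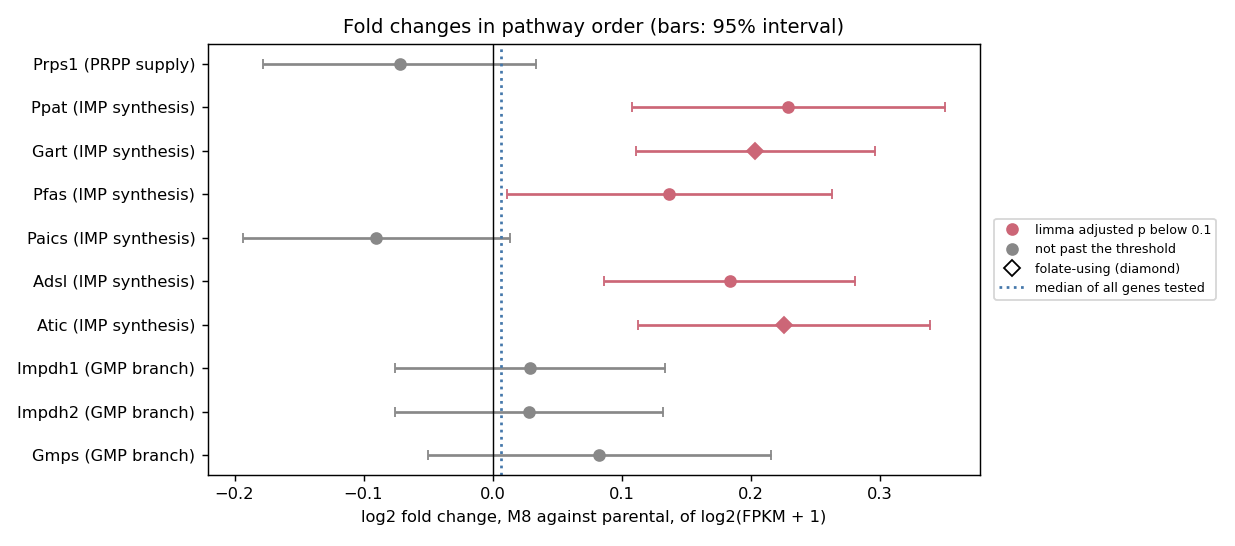
log2 fold change of each member, M8 against parental, on the log2(FPKM + 1) scale, in the order of the pathway. Bars are 95% intervals from limma, diamonds are the folate-using steps and the dotted line is the median of all genes tested (0.0069). The 5 members past the threshold lie between 0.14 and 0.23, and the intervals of the other 5 include 0.

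Gart and Atic both rose, but so did 3 of the 8 other members, and Ppat rose by as much as Atic. The median log2 fold change was 0.21 for the folate-using steps and 0.056 for the other 8. Within each library, the mean log2(FPKM + 1) of Gart and Atic minus that of the 8 other members was 0.53, 0.54 and 0.61 in parental replicates 1 to 3 and 0.76, 0.66 and 0.70 in M8. The M8 values were all above the parental values, with a difference in means of 0.15. The size of this difference depended on what the folate-using steps were set against. It was 0.10 against the other 4 enzymes that lead to IMP (Ppat, Pfas, Paics and Adsl). Against Ppat, Pfas and Adsl alone, 3 genes picked because they had risen, it was 0.031 and the groups overlapped. The ratio of Atic to Gart was 3.05 ± 0.109 in the parental replicates and 3.09 ± 0.191 in the M8 replicates, and the groups overlapped. These differences between members were not tested, since the members were chosen with results known.

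The ratio of Paics to Ppat was 14.1, 16.5 and 17.1 in parental replicates 1 to 3 and 12.3, 12.7 and 12.5 in M8. All 3 M8 ratios were below the parental ratios, and they were also much closer together. On the log2 scale the difference was -0.34, and it was singled out after the values had been seen. The ratios of Impdh2 to Impdh1 overlapped, with 3.75, 4.34 and 3.77 in parental cells and 4.0, 4.01 and 3.82 in M8. Its log2 difference was -0.0015 (exact two-sided permutation test, p = 1.0, where 3 samples against 3 allow no p below 0.1). An exact two-sided permutation test of each single member gave p = 0.1 for the 5 genes that rose and 0.2 to 0.6 for the others.

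**Figure D3:**
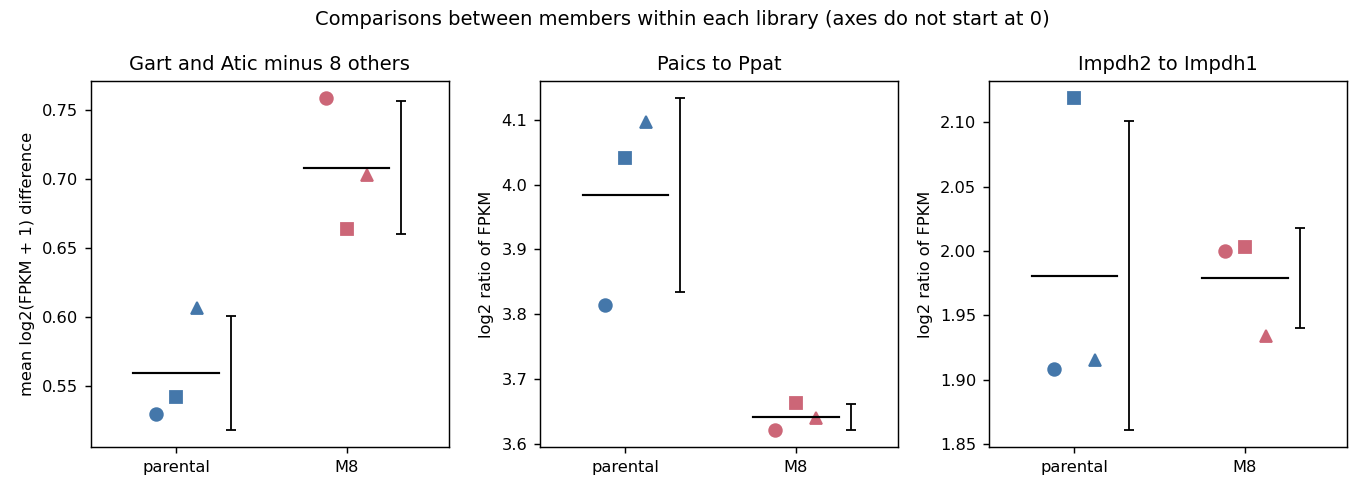
Comparisons between members within each library, parental in blue and M8 in red, with means and ± SD bars. Left, mean log2(FPKM + 1) of Gart and Atic minus that of the other 8 members, 0.56 in parental cells and 0.71 in M8. Middle, log2 ratio of Paics to Ppat, 3.98 and 3.64. Right, log2 ratio of Impdh2 to Impdh1, 1.98 in both. The axes do not start at 0.

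The members spanned a wide range of levels, which FPKM values allow to be compared because they are per length. In parental cells the mean FPKM of the highest member was 16.0 times that of the lowest, and in M8 it was 14.0 times. Paics (155 ± 8.29 FPKM) and Impdh2 (148 ± 6.67 FPKM) led in parental cells and overlapped. In M8 they overlapped as well, with means of 145 and 151 FPKM. Atic came next, apart from both neighbors in either group. Prps1 and Impdh1 overlapped each other in both groups, at 37 to 40 FPKM on average. Gart and Adsl overlapped in parental cells (30.5 and 29.3 FPKM on average) and were apart in M8 (35.2 and 33.5 FPKM). Gmps followed, with averages of 25.9 and 27.5 FPKM. Ppat and Pfas, a pair of glutamine-using enzymes, were the lowest in both groups. They overlapped in parental cells at 9.79 and 9.68 FPKM and were apart in M8 at 11.7 and 10.8 FPKM. The median coefficient of variation of the members was 4.56% in parental cells and 2.46% in M8.

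The positions and copies of the genes limit some of these values. Gart lies on chromosome 16 (91621395 to 91646972), Pfas on chromosome 11 (68985701 to 69008460), Adsl on chromosome 15 (80948490 to 80970947) and Atic on chromosome 1 (71557156 to 71579403). Prps1 is on chromosome X (140456603 to 140476140), Impdh1 on chromosome 6 (29200436 to 29216364), Impdh2 on chromosome 9 (108560436 to 108565577) and Gmps on chromosome 3 (63963633 to 64021554). A noncoding gene also overlaps Ppat, a pseudogene lies within Adsl, Slc33a1 overlaps Gmps, and a microRNA gene and a small nuclear RNA gene lie within Pfas. The libraries were stranded, but whether strand was used in counting is not given in the sources used here. The pseudogene Impdh2-ps matched the Impdh2 transcript at 99.7% over 1545 bases and had no row of its own. Paics had 8 pseudogene matches at up to 91.2% identity and Atic had 2 at up to 87.1%. Prps1 matched the gene Prps1l3 at 92.8% over 1500 bases. Reads of such copies could be counted with the member, and their part in the values was not tested.

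Genes that supply the pathway were described from lists of the same kind, and their counts stand beside 21.2% of all genes tested that were higher and 16.5% that were lower. In the list of formyl group supply, 5 of 8 tested genes rose and 1 fell, against these shares, and the median log2 fold change was 0.31. Shmt2, Shmt1 and Mthfd1l, which load one-carbon units onto folate or release them as formate, had log2 fold changes of 0.61, 0.44 and 0.42. Shmt1, Shmt2, Mthfd1, Mthfd1l and Mthfd2, the genes of this list that rose, were all picked by the study on these samples and are not independent evidence. Aldh1l2, which oxidizes 10-formyl tetrahydrofolate in mitochondria, fell from 103 ± 4.66 to 92.8 ± 3.795 FPKM (log2 fold change -0.15, limma adjusted p = 0.0420). It did not pass without M8 replicate 2 or 3. In the PRPP synthetase family none of the 4 genes tested passed in limma, and Prps2, the other main synthetase, averaged 16.8 ± 0.752 and 15.8 ± 0.174 FPKM in parental cells and M8 (log2 fold change -0.087, limma adjusted p = 0.216). All M8 values of Prps2 lay below its parental values, and with upper-quartile scaling it was called lower. Of the 7 pentose phosphate genes, which make the ribose, Pgls (log2 fold change 0.23) and Rpia (0.15) were higher and G6pdx (-0.11), the first enzyme of that route, was lower, shares close to those over all genes. G6pdx did not pass without parental replicate 2 or 3 or without any 1 M8 replicate, with eBayes without a trend or with the replicate block. Rpia did not pass without parental replicate 1 or 3 or M8 replicate 1 or 3, nor with TPM or upper-quartile scaling.

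Glul, glutamine synthetase, was lower in M8, with parental FPKM values of 48.6, 58.5 and 61.4 and M8 values of 39.9, 40.9 and 38.3 and no overlap (log2 fold change -0.48, limma adjusted p = 0.00240). It was the only gene past the threshold of the 6 tested for glutamine and aspartate supply (16.5% of all genes were lower), although without parental replicate 2 the glutamine carrier Slc1a5 was called lower and the aspartate transaminase Got2 higher. Slc1a5 was also called lower with quantile normalization and upper-quartile scaling. In the AMP branch, Adss averaged 86.2 ± 2.56 and 81.2 ± 4.05 FPKM in parental cells and M8 (log2 fold change -0.085, limma adjusted p = 0.203). TPM, quantile normalization and upper-quartile scaling called it lower. Its less expressed counterpart Adssl1 fell from 10.99, 13.5 and 12.1 FPKM to 8.85, 8.84 and 9.85 FPKM (log2 fold change -0.37, limma adjusted p = 0.00723).

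Of the transcription factors whose letters were searched above, Atf4 rose from 557 ± 12.6 to 656 ± 21.3 FPKM (log2 fold change 0.24, limma adjusted p = 0.00330). Max, the partner of Myc, rose from 22.8 ± 0.614 to 30.3 ± 1.22 FPKM (log2 fold change 0.39, limma adjusted p = 0.000739). Myc itself had parental FPKM values of 72.6, 82.6 and 88.5 and M8 values of 89.9, 87.2 and 87.8. Parental replicate 3 lay within the M8 range, and Myc was not past the threshold (log2 fold change 0.12, limma adjusted p = 0.182) but was without that replicate (0.19, limma adjusted p = 0.0457). Of the 3 members with CACGTG in their window, Atic was higher, and Paics and Impdh2 did not pass.

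Genes of mitosis were also higher in M8, and those of DNA replication in part. All 10 mitosis genes passed, against 21.2% of all genes tested, and their median log2 fold change was 0.47, with 0.73 for Plk1, 0.66 for Cdc20 and 0.66 for Aurka. The exception under other settings was Bub1, a spindle checkpoint kinase, which did not pass with TPM, upper-quartile scaling or no filter, nor without parental replicate 1 or 3 or M8 replicate 2 or 3. The summed level of the list was 434 to 466 FPKM in the parental libraries and 614 to 642 FPKM in those of M8. Of 12 DNA replication genes, 6 were higher (against the same 21.2%) and 6 did not pass, with a median log2 fold change of 0.098, the largest being those of Tk1 (0.31), Mcm5 (0.28) and Mcm3 (0.22). Mcm7, one of the 6, did not pass without parental replicate 1 or 3 or any 1 M8 replicate, nor with TPM, quantile normalization, upper-quartile scaling, no filter, eBayes without a trend or the GC correction. With quantile normalization 3 of the replication genes were higher and 2 were lower, and with upper-quartile scaling 5 were higher and 2 lower. The part of cell division in the purine results was not tested.

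**Figure D4:**
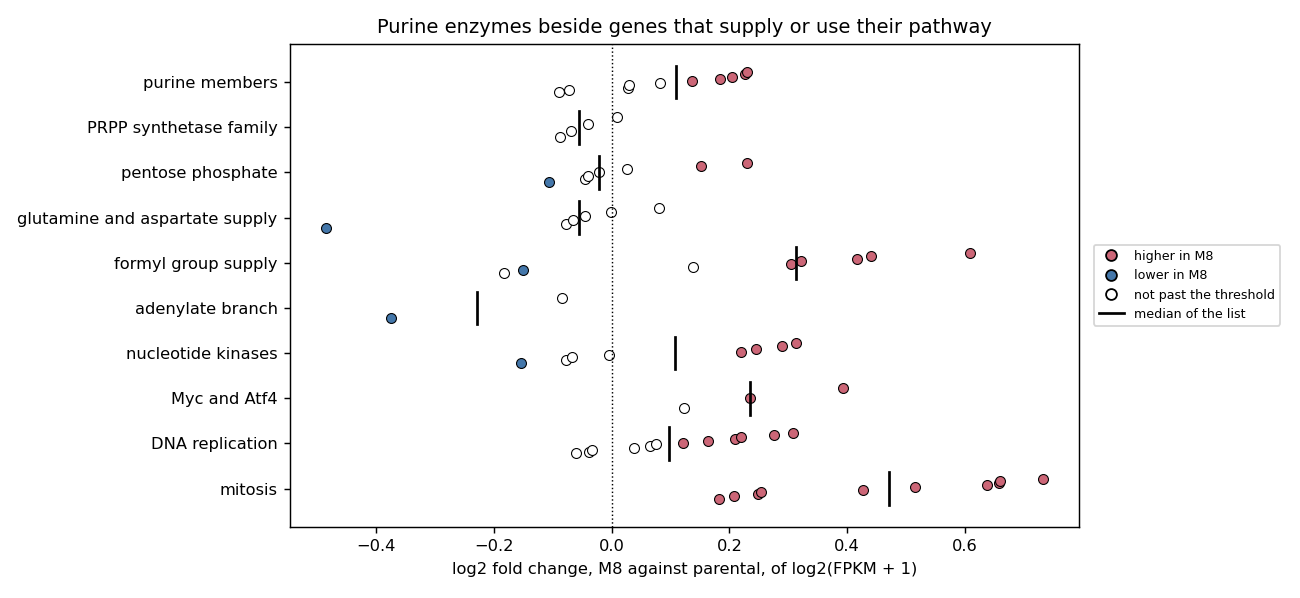
log2 fold changes, M8 against parental, of the 10 purine enzymes and of the tested genes of 9 related lists. Each point is a gene, red where it was higher and blue where it was lower in M8 at a limma adjusted p below 0.1, and vertical lines are medians. The purine enzymes have a median of 0.11, formyl group supply 0.31 and mitosis 0.47.

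Across the series, the deposited values summed to 593635 to 626241 FPKM in the parental replicates and 622529 to 630264 FPKM in M8. From the steps between low values, the relative depth, with parental replicate 1 as the unit, was 0.949 and 1.07 in parental replicates 2 and 3 and 0.771 to 0.874 in M8. The source label colon was checked against markers of colon epithelium. Epcam, Cdh1 and Cdx2 were listed at 0 in all 6 libraries, and Krt8 and Vil1 were below 1 FPKM, while Krt18 and Krt20 were expressed. Of the 3 epithelial markers tested, Krt20 and Lgals4 were lower in M8 (against 16.5% of all genes tested), although Lgals4 was under the filter on low values without parental replicate 1. Krt18, the most abundant of the list, did not pass (log2 fold change 0.18, limma adjusted p = 0.321), and the summed level of the list was 41.8 to 57.7 FPKM in the parental libraries and 48.1 to 50.1 FPKM in those of M8. Of 4 fibroblast markers, Dcn and Pdgfra were lower in M8, and these 2 of 4 stand against the same 16.5%. Col1a2 (log2 fold change -0.062, with all M8 values below the parental ones) and Col1a1 (0.078, with all M8 values above them) did not pass. The sums of the list were 585 to 616 FPKM in the parental libraries and 561 to 590 FPKM in those of M8. Col1a2 was called lower with TPM, quantile normalization and upper-quartile scaling. Col1a1 did not pass there either and had a log2 fold change of -0.015 with quantile normalization. The 6 leukocyte markers summed to at most 0.604 FPKM and the 3 endothelial markers to at most 0.0524 FPKM in any library. The part of these shifts in the purine results was not tested.

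The balance of calls depended on the scale. Of all genes past the threshold, 56.3% were higher in M8 on the deposited scale, 56.6% with median centring, 50.7% with quantile normalization, 42.9% with TPM and 34.7% with upper-quartile scaling. Ppat, Gart, Adsl and Atic were higher in each of these, as in each of the 18 refits with another setting or without 1 replicate. Their lowest log2 fold changes over those fits were 0.17, 0.14, 0.12 and 0.13.

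**Figure D5:**
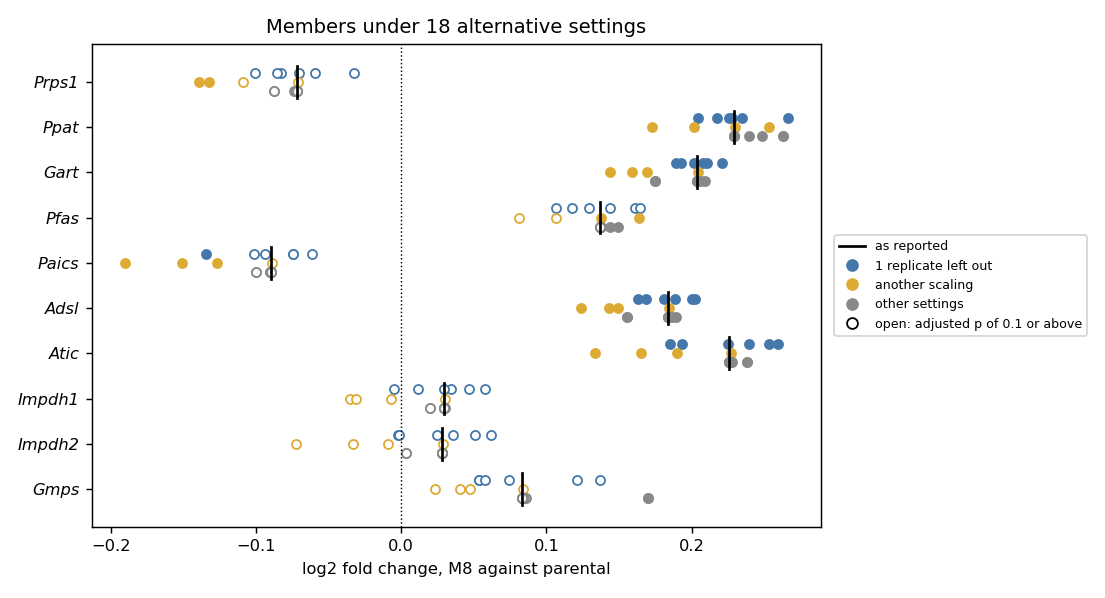
log2 fold change of each member as reported (black lines) and under 18 other settings. Blue points leave out 1 replicate, yellow points use another scaling and gray points another pseudocount, filter, fit, block or correction. Filled points have a limma adjusted p below 0.1. Ppat, Gart, Adsl and Atic stay filled throughout, and the open points of Impdh1 and Impdh2 fall on either side of 0.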

How the data were processed

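RNA of 3 parental CT26.mMR1 and 3 M8 samples was sequenced as stranded mRNA libraries. The deposited FPKM values had been calculated by the authors in Cufflinks after TopHat had placed the reads on mm10. The submitters' processing notes name TopHat2 2.1.1, Bowtie2 2.2.8, SAMtools 0.1.18 and Cuffdiff 2.2.1. The annotation and the handling of reads with several matches are not given in the sources used here. The study compared read counts in iDEP, and those were not used here.

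The groups were compared on log2(FPKM + 1) by limma 3.58.1 (R 4.3.3), using lmFit and a trended eBayes and no covariates, for genes whose FPKM averaged 1 or more over the samples. Benjamini-Hochberg adjustment covered all 10597 genes tested, and the threshold was 0.1 at any fold change, the study's own choice. On this scale, fold changes of low genes are understated. Single values were compared by exact two-sided permutation tests (scipy 1.17.1). The fit was tested on simulated data first. Replicates correlated at Pearson's r of 0.9935 to 0.9952 across genes, which are not independent, and none were identical. Without the read counts, the counting error of the FPKM values could not be estimated, so no interval for it is given. Relative depth was the commonest ratio between samples, within 0.002 on the log2 scale, of genes above 0 but below 0.5 FPKM in all samples, searched near 1 only, since multiples also occur.

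The members and lists were chosen with earlier results of these data known. All members are named, and of each list the 3 genes that changed most among those past the threshold, with Adss, Adssl1, Prps2, Myc and Atf4. Other named genes, the motifs, the Paics to Ppat ratio and the GC correction were chosen after values were seen. GC content and length came from GENCODE M21 transcripts, known for 10212 of the genes tested (96.4%), and were corrected by loess with a span of 0.5. Copies were matches of at least 300 bases at 75% identity or more between GENCODE transcripts. Promoter windows and positions are from RefSeq (GRCm38.p6). The alternatives were pseudocounts of 0.1 and 0.5, TPM, quantile, upper-quartile and median scaling, no filter or one at a mean FPKM of 5, untrended eBayes, stricter calls (an adjusted p of 0.05, or a change of 1.5-fold), a block for the replicate number, and fits that left out 1 replicate. Python 3.11.15 with pandas 2.3.3 and matplotlib 3.10.9 served for tables and plots.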

Additional observations from a re-analysis of the deposited data

How the results depend on the processing

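Ppat, Gart, Adsl and Atic passed an adjusted p of 0.1 in limma in all 18 refits, while Pfas passed in 8, Paics in 5, Prps1 and Gmps in 2 each, and Impdh1 and Impdh2 in none. With a fold change of at least 1.5, 0 members were higher, against 42 higher and 74 lower genes over the whole table. Upper-quartile scaling gave 1470 higher and 2769 lower genes. The number of members lower in M8 was 1 with TPM, 2 with quantile normalization, 2 with upper-quartile scaling, 1 with the GC content and length correction and the replicate block together, and 0 to 1 with each replicate left out. Leaving out replicates gave 1157 lower genes at the least and 1672 at the most, the least without M8 replicate 1. Impdh1 had log2 fold changes of -0.0072 with TPM, -0.035 with quantile normalization, -0.031 with upper-quartile scaling and -0.0051 to 0.058 without single replicates. Impdh2 had -0.0088, -0.072 and -0.033 with these scalings and -0.0022 to 0.062 without single replicates. The log2 ratio of Impdh2 to Impdh1 moved between -0.038 and 0.068 without single replicates, the last without parental replicate 2. The folate-using steps minus the other steps stayed at 0.12 to 0.17 without single replicates and was 0.10 against Ppat, Pfas, Paics and Adsl. The cause of these shifts was not tested, and the lower depth of the M8 libraries limits low genes most.

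The values gave no clear sign that the replicate numbers paired the samples, and the sources used here do not say whether they did. The correlation of deviations between same-numbered samples was 0.10, -0.11 and -0.033, and not every sample correlated best with its own number. With the replicate block, 2171 genes were higher and 1688 lower, and 4 members were higher, since Pfas no longer passed (limma adjusted p = 0.102).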

Other observations

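Nucleotide kinases, which turn purine monophosphates into the di- and triphosphates used for RNA, DNA and energy, moved in both directions. In this list 4 of 8 tested genes rose and 1 fell, against 21.2% and 16.5% of all genes tested, with a median log2 fold change of 0.11. Ak6, a nuclear adenylate kinase, had parental FPKM values of 34.3, 36.3 and 39.0 and M8 values of 46.4, 46.6 and 43.9 (log2 fold change 0.31, limma adjusted p = 0.00320). The groups did not overlap. Ak1, the cytosolic enzyme, fell from 59.4 ± 0.145 to 53.3 ± 1.09 FPKM (log2 fold change -0.15, limma adjusted p = 0.0158). Guk1, which phosphorylates GMP, did not pass (log2 fold change -0.068, limma adjusted p = 0.276), but was called lower with quantile normalization and upper-quartile scaling.

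Nme6, a nucleoside diphosphate kinase family member, was higher (log2 fold change 0.25, limma adjusted p = 0.00940), as was Nme1 (0.22, limma adjusted p = 0.0125), although Nme1 did not pass with quantile normalization. Nme2, the most abundant of the list, averaged 805 ± 5.22 FPKM in the parental replicates and 803 ± 20.1 FPKM in those of M8. Nme1 and Nme2 are neighboring genes of similar sequence, so reads could be split between them.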
